A study of Mus musculus with 12 samples.

Results

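Metabotropic glutamate receptors are G-protein-coupled receptors that let the excitatory transmitter glutamate adjust synaptic strength slowly, through second messengers rather than through an ion pore. The genes described here are 6 of that family, Grm2, Grm3, Grm4, Grm5, Grm7 and Grm8, taken by gene name and not by any measured value, out of 41319, 42527 and 41667 loci in the tables of the 2 h, 24 h and 7 d comparisons. All 6 were listed in each table. Their RNA was measured by poly(A) RNA sequencing in the prefrontal cortex (PFC) of 10-week-old male C57BL/6 mice (C57BL/6 J in the paper's methods) injected intraperitoneally with saline (the control of the labels) or with cocaine at 20 mg/kg, once a day over 14 days. The tissue was taken 2 h, 24 h or 7 d past the final dose. The 6 groups hold 2 libraries each, 12 in all, and every library pooled the PFC of 5 mice. The injections were given by the experimenter, so the model is one of repeated exposure and not of self-administration.

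Each table gives a single FPKM per group (the number of fragments scaled to transcript length and to library size), which the authors computed over the 2 libraries of the group. The first FPKM of a table was read as saline and the second as cocaine, as the paper's supplementary tables head them; the tables' own codes do not say so, and every direction below rests on this reading. No spread between libraries and no depth can be read from the FPKM, so no test was run, no p value is given, and every difference below is a description of 2 pooled values. In place of a test, a ratio was set beside those of all loci with a mean FPKM of at least 1 at that time (13804, 14264 and 13927 loci). The measure was log2((cocaine FPKM + 0.1)/(saline FPKM + 0.1)), and a locus was counted as past the limit where this was at least 0.32 in size, which is a difference of 25% of the lower value. Over all loci the share past the limit was 13.2% for 2 h, 8.76% for 24 h and 13.9% for 7 d. Among named protein-coding loci alone, an alternative chosen after seeing the data, it was lower, at 9.99%, 5.34% and 9.86%. All 6 receptor genes had a mean FPKM over 1 at each time.

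By textbook classification the genes fall into 3 groups. Grm5 encodes a group I receptor, which acts through Gq and phospholipase C and lies mainly on the postsynaptic side, where Homer and Shank proteins tether it. Grm2 and Grm3 encode the group II receptors, which act through Gi/o to lower cyclic AMP and transmitter release. Grm3 is also known as an astrocyte receptor. Grm4, Grm7 and Grm8 encode group III receptors, which act through Gi/o as presynaptic autoreceptors. Group II and group III receptors have long been studied as brakes on glutamate release in models of drug seeking, and the group I receptor for its role in synaptic plasticity.

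The coding ends of the genes are shown because partner proteins dock there and because the splice forms of Grm7 and Grm8 part there, whereas the FPKM covers all forms of a gene. Each line holds the last 10 codons before the stop, 5′ to 3′, with the final 3 in capitals, read from the GENCODE M1 transcript named.
Grm5 (Grm5-203): agagattacacgcagagttctTCATCGTTG
Grm2 (Grm2-201): gaggtggtagactcaacaacaTCGTCGCTT
Grm3 (Grm3-201): gaagtcctggactccaccaccTCATCTCTG
Grm4 (Grm4-002): acctacgtcacttacaccaacCATGCAATC
Grm7 (Grm7-001): aagtatgtcagttataataacCTGGTTATC
Grm7 (Grm7-003): gtaacttggtacactatcccaCCAACAGTA
Grm8 (Grm8-002): acatacatcagctacagtaatCATTCAATC
Grm8 (Grm8-001): tttcagatggtcaagagcgggAGCACTTCC
Grm5, Grm2 and Grm3 all end in codons for serine, serine and leucine. The Grm7-001 form ends in leucine, valine and isoleucine, the kind of end to which the PDZ protein Pick1 binds, and the Grm7-003 form in proline, threonine and valine. The FPKM of Grm7 and Grm8 do not tell these forms apart.

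The tail of Grm5 also holds the site at which Homer proteins bind, a run of proline, proline, any 2 residues and phenylalanine. It lies at codons 1156 to 1160 of the 1203 of Grm5-203, in capitals below with 4 codons on each side.
Grm5 Homer site: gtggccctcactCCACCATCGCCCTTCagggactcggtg
The same residues occur once in Grm2 and once in Grm7, from codons 186 and 200, far from the tail, and in no complete coding sequence of Grm3, Grm4 or Grm8. Over the whole translated length, aligned in pairs, the 4 pairs within a class shared 68.4 to 73.9% of aligned residues and the 11 pairs between classes 44.1 to 47.6%. Grm7 and Grm8 were the closest pair.

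In the table of the 2 h comparison, with positions on GRCm38, Grm2 lies on chromosome 9 (106640928 to 106656126), Grm3 on chromosome 5 (9485236 to 9725352), Grm4 on chromosome 17 (27422387 to 27513698), Grm5 on chromosome 7 (87584335 to 88135252), and Grm7 and Grm8 on chromosome 6 (110638782 to 111567230 and 27274895 to 28135337). All 6 listed spans overlapped the RefSeq gene of that name in GRCm38.p6 in all 3 tables. The spans are those of assembled loci and can hold further genes.

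Of the 18 ratios of cocaine to saline, 6 genes at 3 times, 0 were past the limit, and 9 lay above and 9 below no difference. Over all loci, 56.1% of ratios lay above and 43.9% below no difference at 2 h, 53% and 47% at 24 h, and at 7 d 47.6% and 52.4%. The ratio largest in size was 1.23-fold (Grm2 at 24 h, log2 0.30). The median size of the log2 ratio was 0.09 over these 18, beside 0.11, 0.09 and 0.13 over all loci at 2 h, 24 h and 7 d. With a lower limit of 1.2-fold, 3 ratios were past it, those of Grm2 and Grm7 at 24 h and Grm3 at 7 d, all higher in cocaine. Thus 0 of 6 genes at 2 h, 2 of 6 at 24 h and 1 of 6 at 7 d passed that lower limit, beside 18.6%, 12.7% and 21% of all loci.

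**Figure D1:**
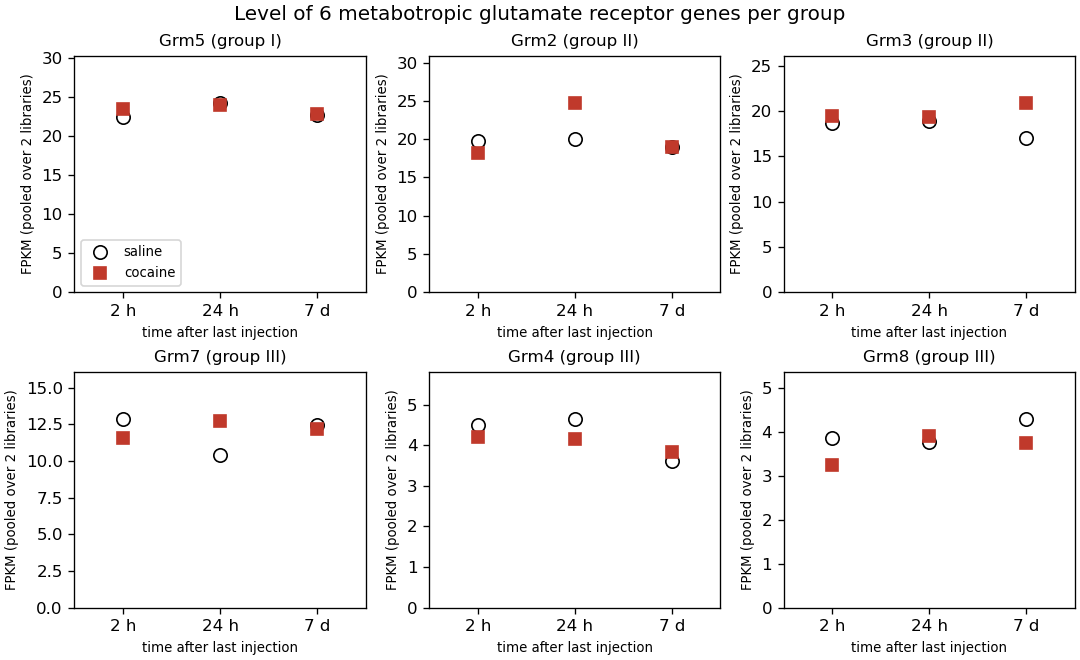
FPKM of each receptor gene (vertical axis from 0, its own scale per gene) in saline (open circles) and cocaine (red squares) by time after the last injection; each point is 1 value pooled over 2 libraries and has no error bar. Grm5 stays between 22.4 and 24.2, Grm2 in cocaine stands at 24.7 at 24 h, and the Grm3 groups are farthest apart at 7 d (17.1 and 20.9).

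FPKM is scaled to transcript length, so levels can be set beside each other across genes. Grm5 was the most abundant by median over the 6 groups (23.1 FPKM), followed by Grm2 (19.4), Grm3 (19.1), Grm7 (12.3), Grm4 (4.17) and Grm8 (3.81). The ranges of Grm2 (18.1 to 24.7) and Grm3 (17.1 to 20.9) overlapped, as did those of Grm4 (3.62 to 4.65) and Grm8 (3.25 to 4.31) over the 6 groups. Within the groups, Grm2 was above Grm3 in 4 of 6 and Grm4 above Grm8 in 5 of 6, all but saline at 7 d. The range of Grm2 also took in that of Grm5 (22.4 to 24.2), through the cocaine group of 24 h alone; in the other 5 groups Grm5 was higher than Grm2. Grm7 lay between, from 10.4 to 12.9, and overlapped no other member. Summed over the 6 genes, the level was 82.1 FPKM with saline and 80.0 with cocaine at 2 h, 82.0 and 88.7 at 24 h, and at 7 d 79.0 and 82.3. The group II pair made up 45.6 to 49.6% of each sum.

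Grm5, the group I receptor gene, was the steadiest of the 6. It had 22.4 FPKM with saline and 23.4 with cocaine at 2 h, 24.2 and 23.9 at 24 h, and at 7 d 22.6 and 22.8. The log2 ratios were 0.07, -0.02 and 0.01. All 6 values lay within a 1.08-fold span, and cocaine was neither all above nor all below saline.

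Grm2 differed most between groups at 24 h. It had 19.8 FPKM with saline and 18.1 with cocaine at 2 h, 19.99 and 24.7 at 24 h, and at 7 d 19.0 and 18.9. The 3 saline groups were close together, within 1.05-fold, and the 24 h cocaine group alone stood above the other 5. The log2 ratios were -0.12, 0.30 and -0.00. At 24 h, 5.02% of all loci had a higher log2 ratio than Grm2, and 9.68% had a ratio of larger size in either direction.

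Grm3 was higher in cocaine at all 3 times, by 1.04-fold at 2 h, 1.02-fold at 24 h and 1.22-fold at 7 d. Its levels were 18.7 FPKM with saline and 19.5 with cocaine at 2 h, 19.0 and 19.3 at 24 h, and at 7 d 17.1 and 20.9. Of genes found in all tables, 18.7% were higher in cocaine at all 3 times, and 32.8% lay on the same side of saline each time, in either direction; of the 6 receptors Grm3 was the only such gene. Its 3 cocaine values all lay above its 3 saline values, as in 3.41% of genes. The tables were normalized separately, and this feature of Grm3 was picked out after its values were seen. At 7 d the saline value was the lowest of the 6 and the cocaine value the highest. The log2 ratio there was 0.29, and 17.4% of loci had a ratio of larger size. In the 7 d table the listed span of Grm3 ran from 9266118 to 9725952, 460 kb in place of the 240 kb of the other tables, and took in the neighbouring gene 9330182L06Rik. That gene has a row of its own, at 11.1 FPKM with saline and 12.5 with cocaine at 7 d (log2 ratio 0.17). It was at 12.7 and 12.6 at 2 h and at 20.7 and 20.6 at 24 h, where its span was apart from that of Grm3. What the joined span does to the Grm3 value was not tested.

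Because Grm3 is also an astrocyte gene, the astrocyte list was set beside it. All 5 of its genes (Gfap, Aqp4, Aldh1l1, Gja1 and Slc1a3) had a higher FPKM in cocaine at 7 d, 0 of 5 past the limit, with a median log2 ratio of 0.15 and a summed level of 313 with saline and 351 with cocaine. The oligodendrocyte precursor list was also higher at 7 d, in 3 of 3 genes with a median of 0.21 and 0 past the limit. Higher values at 7 d were not particular to glia. The endothelial list had 4 of 5 genes higher, with a median of 0.16. The summed excitatory neuron level was 1.12-fold, as was that of astrocytes, while the interneuron sum was 0.917-fold. Of all 42 marker genes measured at 7 d, 29 were higher and 13 lower, with a median of 0.10. At 2 h all 5 astrocyte genes were higher (sums of 319 and 351, 0 past the limit), and at 24 h all 5 were lower (367 and 327, with Gfap past the limit), while Grm3 was 1.04-fold and 1.02-fold higher. Over all loci, 56.1% were higher in cocaine at 2 h, 47% lower at 24 h and 47.6% higher at 7 d. In bulk tissue, fewer cells of a type and less RNA per cell cannot be told apart, and the part of these cells in the Grm3 ratio was not tested.

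Grm7, the most abundant group III gene, differed most at 24 h. It had 12.9 FPKM with saline and 11.5 with cocaine at 2 h, 10.4 and 12.7 at 24 h, and at 7 d 12.5 and 12.2. Here it was the saline group of 24 h that stood apart as the lowest of the 6, while the cocaine value of 24 h lay among the saline values of the other tables. The log2 ratios were -0.16, 0.28 and -0.03. The 24 h table lists Grm7 at 3 loci of the same span, and the others at 1. The further loci had 1.09 FPKM in both groups, and 0.404 with saline and 0.410 with cocaine. With the 3 summed, the log2 ratio at 24 h was 0.25. Gm20387, which shares the span, was at 1.37 FPKM with saline and 0.974 with cocaine at 24 h. The counting is not stated to use strand, so reads of overlapping genes cannot be assigned with certainty.

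Grm8 was lower in cocaine at 2 h and 7 d. Its levels were 3.86 FPKM with saline and 3.25 with cocaine at 2 h, 3.77 and 3.92 at 24 h, and at 7 d 4.31 and 3.76. The log2 ratios were -0.24, 0.05 and -0.19, the first being the lowest of the 18. At 2 h, 21.6% of loci had a ratio of larger size.

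Grm4 had 4.51 FPKM with saline and 4.20 with cocaine at 2 h, 4.65 and 4.14 at 24 h, and at 7 d 3.62 and 3.83. The log2 ratios were -0.10, -0.16 and 0.08, and the 2 groups were no farther apart at any time than the saline groups were among themselves. All 3 group III genes were lower in cocaine at 2 h, with a summed level of 21.3 FPKM with saline and 19.0 with cocaine. At 24 h the sums were 18.9 and 20.8, and at 7 d 20.4 and 19.8.

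**Figure D2:**
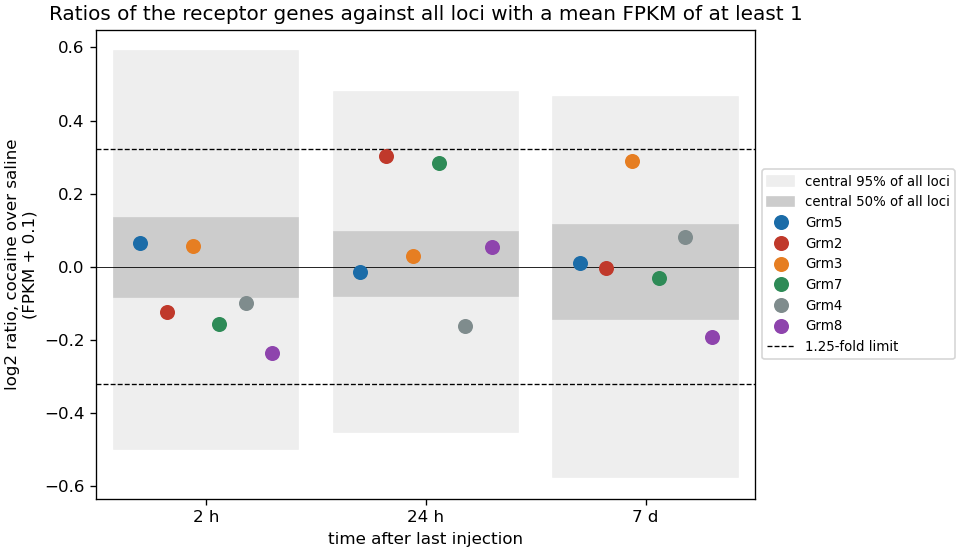
Log2 ratio of cocaine to saline (vertical axis, FPKM + 0.1) of each receptor gene at 2 h, 24 h and 7 d, with the central 50% and 95% of all loci as dark and light bands and the limit of 0.32 dashed. All 18 points lie inside the limit and inside the light band, with Grm2 (0.30) and Grm7 (0.28) at 24 h and Grm3 (0.29) at 7 d nearest to it.

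The saline groups show how far a gene's pooled level differed with no cocaine given, although time and table differ between them as well. The highest saline FPKM over the lowest was 1.29-fold for Grm4, 1.24-fold for Grm7, 1.14-fold for Grm8, 1.11-fold for Grm3, 1.08-fold for Grm5 and 1.05-fold for Grm2. Only Grm4 of the 6 was past the limit, as were 29% of 13033 genes found in all tables. Among the cocaine groups the span was 1.36-fold for Grm2 and from 1.05-fold to 1.205-fold for the others, so that 1 of 6 was past the limit, beside 25.1% of all genes. For Grm4, Grm5 and Grm7 the largest difference between cocaine and saline at any time was smaller than this saline span, and for Grm2, Grm3 and Grm8 it was larger.

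Ratios over all loci went with transcript length, most at 7 d. Spearman's rho across loci, which are not independent replicates, was 0.156 for 2 h, 0.085 for 24 h and 0.474 for 7 d. The receptor transcripts are long, from 3320 nt for Grm2 to 6896 nt for Grm5. With the median ratio of loci of like length subtracted, Grm3 at 7 d stood at 0.27, Grm2 and Grm7 at 24 h at 0.29 and 0.26, and Grm8 at -0.27 at 2 h and -0.22 at 7 d. Grm5 turned from 0.01 to -0.12 at 7 d and from 0.07 to -0.01 at 2 h. No receptor gene passed the limit.

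**Figure D3:**
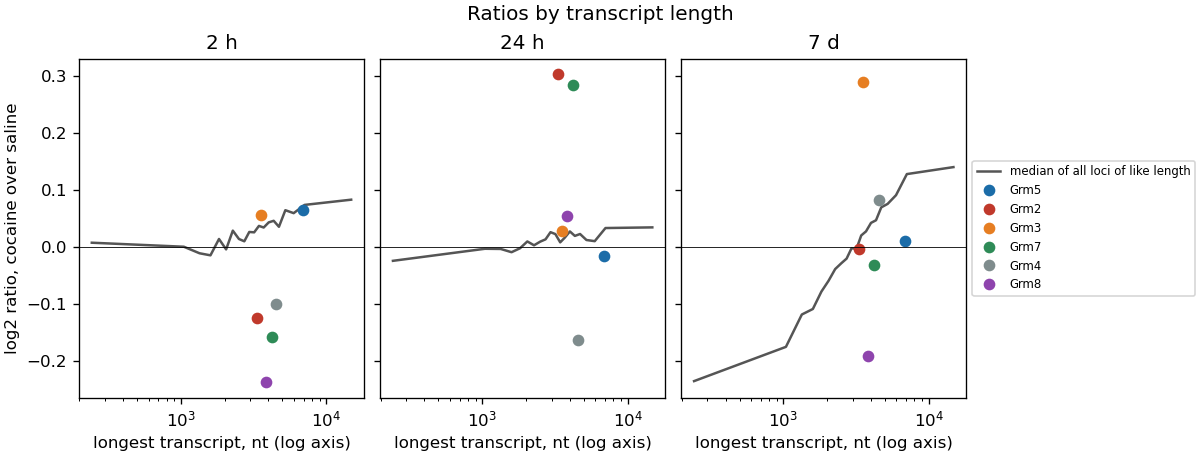
Log2 ratio of cocaine to saline (vertical axis) against the length of the longest transcript in nt (horizontal log axis) at each time; the line is the median of all loci in 20 groups of length, and each coloured point is a receptor gene. At 7 d the line climbs from -0.24 to 0.14, with Grm3 above it and Grm8 and Grm5 below it.

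The genes around the receptors were followed in 6 lists of 74 genes, of which 73 had a mean FPKM of at least 1. Past the limit, 6 were higher and 0 lower in cocaine at 2 h, 1 higher and 1 lower at 24 h, and 7 higher and 1 lower at 7 d. Over all loci, 7.44% were higher and 5.77% lower at 2 h, 4.52% and 4.24% at 24 h, and at 7 d 5.55% and 8.39%. The median log2 ratio of the 73 was 0.08, -0.00 and 0.11 at the 3 times, beside 0.02, 0.01 and -0.01 over all loci. These medians were not corrected for transcript length. At 7 d the median over all loci rose from -0.24 for the shortest transcripts to 0.14 for the longest. With the trend over transcript length subtracted, 5 genes in place of 8 were past the limit at 7 d. The medians of the 6 receptors were -0.11, 0.04 and 0.00.

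Downstream of group I, the list of Gq and G11, phospholipase C, protein kinase C and related genes had 0 of 13 past the limit at each time, with medians of 0.07, -0.03 and 0.09. Gnaq, a G protein through which Grm5 acts, was at 37.7 FPKM with saline and 36.2 with cocaine at 24 h. In the list of Homer, Shank and linked scaffold genes, 1 of 8 was past the limit at 2 h, 1 of 8 at 24 h and 2 of 8 at 7 d, beside the shares of 13.2%, 8.76% and 13.9% of all loci. By direction alone, with no limit, 8 of 8 lay above no difference at 2 h, 8 of 8 below it at 24 h, and 7 of 8 above it at 7 d, with median log2 ratios of 0.25, -0.13 and 0.28. Over all loci, 56.1% lay above it at 2 h, 47% below it at 24 h and 47.6% above it at 7 d. Its medians were not corrected for transcript length either, and whether this list differed from the others was not tested. Homer1 was at 35.7 FPKM with saline and 44.9 with cocaine at 2 h, 34.5 and 30.3 at 24 h, and at 7 d 33.4 and 32.6. Its forms include the short Homer1a, known to be made quickly on neuronal activity, which the gene value does not separate. Homer3 was past the limit at 24 h (3.37 FPKM with saline and 2.597 with cocaine). At 7 d Shank1 stood at 39.1 FPKM with saline and 67.5 with cocaine (1.73-fold), and Shank3 at 33.4 and 42.4 (1.27-fold), while Grm5 differed by 1.01-fold.

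Downstream of groups II and III, the list of Gi/o proteins, adenylyl cyclases, potassium channels of the Kcnj family and presynaptic calcium channels had 1 of 15 past the limit at 2 h and 0 at the later times. That gene was Adcy9, an adenylyl cyclase, at 9.17 FPKM with saline and 12.3 with cocaine. Over all loci, 13.2% were past the limit at 2 h, 8.76% at 24 h and 13.9% at 7 d. Gnao1, the abundant brain Go protein, was at 187 and 200 FPKM at 2 h, 202 and 206 at 24 h, and at 7 d 173 and 182.

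Among 16 partners and regulators, Elfn2 and Rgs2 were past the limit at 2 h. Elfn2, a postsynaptic adhesion protein that binds group III receptors across the synapse, was at 15.7 FPKM with saline and 25.1 with cocaine at 2 h (1.595-fold), 13.3 and 16.4 at 24 h, and at 7 d 11.2 and 13.1. It was higher in cocaine at each time, while the summed group III level was 0.89-fold, 1.102-fold and 0.97-fold. Rgs2, which speeds the shut-off of G proteins, was at 13.7 and 17.4 FPKM at 2 h and at 15.9 and 12.7 at 7 d, past the limit in opposite directions. At 7 d Rgs2 was only just past it, with a log2 ratio of -0.3231 beside a limit of 0.3219 in size. No partner gene was past the limit at 24 h. Of all loci, 13.2%, 8.76% and 13.9% were past it at 2 h, 24 h and 7 d.

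In the list of glutamate and NAAG supply (NAAG is a peptide transmitter that acts on Grm3), 0 of 11 measured genes were past the limit at 2 h and 24 h and 1 at 7 d. This was Slc1a2, the main glial glutamate transporter, at 219 FPKM with saline and 286 with cocaine at 7 d. Of 10 plasticity and translation genes linked to group I signalling, 2 were past the limit at 2 h (Arc and Eif4ebp2), 1 at 24 h (Arc) and 4 at 7 d, with Arc and Eef2k the highest. Beside both lists, 13.2%, 8.76% and 13.9% of all loci were past the limit at 2 h, 24 h and 7 d. Arc, whose protein takes part in the removal of AMPA receptors after group I activation, was 13.9-fold higher after 2 h, 2.33-fold after 24 h and 3.33-fold after 7 d. With saline Arc was at 5.59, 23.2 and 6.47 FPKM at 2 h, 24 h and 7 d, and with cocaine at 77.8, 54.1 and 21.6. The fold at 24 h thus stood on the highest saline value, and the cocaine level was lower at each later time. Eef2k, a kinase that slows translation, was at 5.48 and 7.96 FPKM at 7 d.

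**Figure D4:**
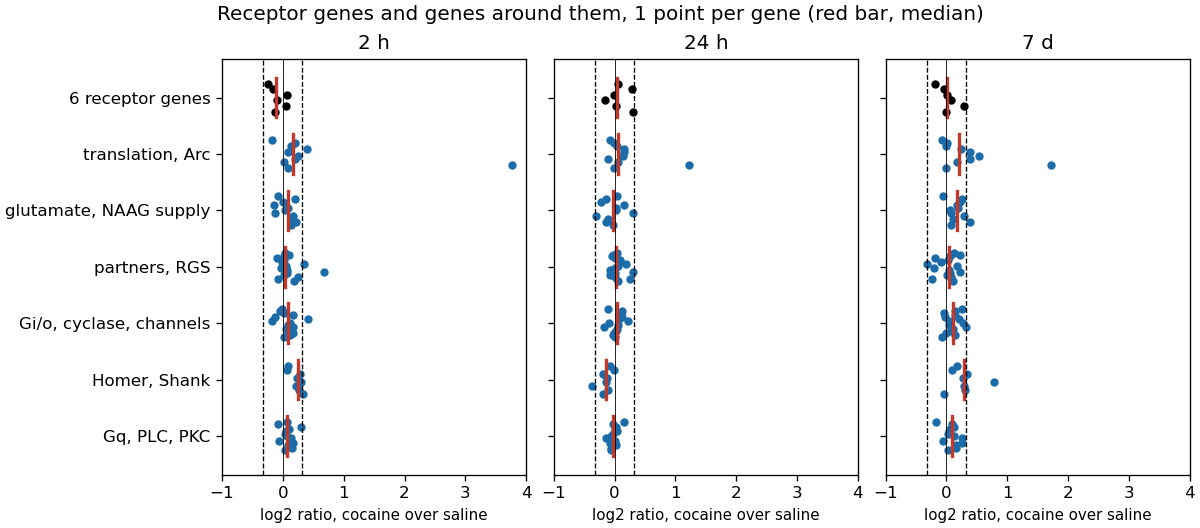
Log2 ratio of cocaine to saline (horizontal axis) of the 6 receptor genes (black) and of each gene in the 6 lists around them (blue, 1 point per gene, spread vertically for legibility) at 2 h, 24 h and 7 d; red bars are medians and dashed lines the limit of 0.32. The receptor genes lie inside the limit at each time, while the median of the Homer and Shank list goes from 0.25 to -0.13 to 0.28 and Arc lies far to the right at 2 h (3.77).

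Over the 6 pooled groups, the genes whose log2 level correlated most with each receptor, among 13032 genes, were Ptp4a1 and Fmr1 for Grm5 (Pearson's r of 0.989 and 0.979), Lpcat4 and Coq5 for Grm2 (0.985 and 0.981), Gm10443 and Sh3glb1 for Grm3 (0.982 and 0.974), Reps1 and Tyro3 for Grm4 (0.976 and 0.975), Dxo and Aptx for Grm7 (0.980 and 0.980), and Zfp286 and Nap1l3 for Grm8 (0.995 and 0.994). These are descriptions over 6 points that share table and normalization, and the genes named are the highest of many. Among the receptors themselves r ranged from -0.66 (Grm5 and Grm7) to 0.48 (Grm2 and Grm5).

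The tissue carried the markers of cortex. Slc17a7 and Camk2a, of excitatory neurons, were at 466 to 532 and 844 to 1048 FPKM, and Gad1, of interneurons, at 69.3 to 78.1. Of olfactory bulb genes Eomes and Tbx21 stayed under 0.16 FPKM. Doc2g was listed at a locus shared with Nudt8, at 5.83 to 6.71 FPKM, which cannot be assigned to Doc2g alone. Of the striatal list 4 of 5 genes were found, with Ppp1r1b at 46.4 to 57.7 FPKM, which cortex also expresses, and Adora2a at 0.805 to 1.35. The summed oligodendrocyte level was lower in cocaine at each time, by 0.826-fold at 24 h, and the 3 red blood cell genes together were 1.53-fold, 1.09-fold and 1.16-fold higher at 2 h, 24 h and 7 d. The summed excitatory neuron level was 1.08-fold, 0.960-fold and 1.12-fold at 2 h, 24 h and 7 d. For interneurons the sum was lower in cocaine each time, at 0.951-fold, 0.982-fold and 0.917-fold. Summed microglial, endothelial and oligodendrocyte precursor levels stood between 0.914-fold and 1.15-fold, and the choroid plexus list, at a sum of 1.38 to 7.43 FPKM, between 0.511-fold and 5.25-fold. Their part in the receptor ratios was not tested.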

How the data were processed

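Total RNA of pooled PFC was sequenced from poly(A) libraries. Per the labels, the submitters' processing notes name CASAVA 1.8.2, Trimmomatic 0.32, TopHat2 2.0.12, Cufflinks 2.2.1 and Cuffdiff, with GRCm38; the paper's methods name cutadapt, mm9 and uniquely mapped reads. The deposited tables, 1 per time point and normalized separately, hold the authors' FPKM per group over 2 libraries. Their columns of fold change, test statistic, p, q and status are the authors' own comparison and were not used. The code of the tables' first group starts with C, which the labels use for cocaine (CC for control). The first FPKM was nevertheless taken as saline and the second as cocaine, following the headings of the paper's supplementary tables for all 3 times. The values printed there are not identical for every gene. For Arc at 24 h they differ slightly, with saline the lower in both.

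Ratios were computed in Python 3.11.15 (pandas 2.3.3, numpy 2.4.6, scipy 1.17.1, Biopython 1.88, matplotlib 3.10.9) with a pseudocount of 0.1 FPKM, a minimum mean FPKM of 1 and a limit of 25% (log2 0.32). A gene with several loci took the longest, and on ties the higher FPKM. The tables hold no depth per library, and the read numbers that the paper states give no error of a pooled FPKM. Transcript lengths (20 groups; 80.0 to 80.7% of loci matched) and coding sequences came from GENCODE M1; translated sequences were aligned globally with BLOSUM62. The counting steps were tested on simulated data. Named genes were the 6 receptors, per list and time the 2 highest and 2 lowest genes past the limit, and the 2 most alike genes per receptor; other genes and markers given as examples (Gnaq, Gnao1, Elfn2 and Homer1 at later times, overlapping genes) were chosen after their values were seen. The receptors and the lists were chosen with earlier results of these data known. Alternatives were the pseudocount, filter, limit, locus, centring and a length trend. Leaving out a library was not possible from pooled values.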

Additional observations from a re-analysis of the deposited data

How the results depend on the processing

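Under 6 alternatives (no pseudocount, a pseudocount of 1, another locus or the sum of loci, median centring, and the length trend subtracted) all 108 recomputed receptor ratios stayed inside the limit of 0.32, from -0.27 to 0.30 on the log2 scale, and 3 changed sign (Grm5 at 2 h and 7 d with the length trend subtracted, Grm2 at 7 d with centring). The alternatives of another locus and the sum of loci could change only Grm7 at 24 h, listed at several loci. The sum gave 0.25 there, and all other ratios under these alternatives repeat the main values by construction. The count of receptor genes past the limit went from 0 to 2 at 24 h and to 1 at 7 d with a limit of 1.2-fold, and stayed 0 at 2 h. Genes of the surrounding lists past the limit, 6, 2 and 8 at 2 h, 24 h and 7 d, numbered 10, 5 and 16 with a limit of 1.2-fold and 2, 1 and 2 with 1.5-fold; at 24 h a pseudocount of 1 left 1, and at 7 d the length trend left 5. The share of all loci past the limit was 4.43%, 3.55% and 4.16% with 1.5-fold at 2 h, 24 h and 7 d, and 21.0% at 7 d with 1.2-fold. Without a filter above 0 it was 23.0%, 19.2% and 23.0%, and with a mean FPKM of at least 0.1 it was 23.2%, 19.1% and 23.6%. A pseudocount of 1 gave 8.43% at 2 h, 5.602% at 24 h and 9.31% at 7 d. Subtracting the length trend gave 9.51% at 2 h, 5.34% at 24 h and 6.77% at 7 d, over fewer loci. Named protein-coding loci alone, an alternative chosen after seeing the data, gave 9.99% at 2 h, 5.34% at 24 h and 9.86% at 7 d. No paired analysis was possible because each group has 1 pooled value, and for the same reason no library could be left out. The spread between libraries is not in the tables, so a difference of the size seen here can neither be called nor dismissed.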
